A study of Mus musculus with 6 samples.

Results

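The cells described here are cardiac fibroblasts that carried transcripts of Postn, Cthrc1 and Tnc, the genes used to mark fibroblasts activated by injury. They were picked cell by cell from unique molecular identifier (UMI) counts, each UMI standing for 1 captured RNA molecule. A cell needed at least 1000 UMIs, at least 200 detected genes and at most 20% mitochondrial UMIs. It needed at least 10 UMIs summed over Col1a1, Col1a2, Col3a1 and Dcn, at least 1 over Pdgfra, Lum and Dpt, and at least 5 over Postn, Cthrc1 and Tnc. It could hold at most 1 UMI of Pi16, and at most 1 summed over each of Cdh5, Csf1r and Ptprc (endothelial and blood cells), Msln and Upk3b (mesothelium), and Myh11 and Kcnj8 (mural cells). The rule found 296 cells, 28.1% of the 1054 cells that passed the same fibroblast gate without the Postn, Cthrc1 and Tnc threshold, and 0.986% of all 30014 cells past the cell filter. Of the other gated cells, 612 held at most 1 UMI of the 3 markers and are called low-activation fibroblasts below, and 146 lay in between. Since these markers chose the cells, their values, the shares of cells past the threshold and every contrast with low-activation fibroblasts are descriptions.

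The cells came from mouse ventricles from which cardiomyocytes had been left out, in 6 libraries of single-cell RNA sequencing with 10x 3' chemistry. Wild-type (WT) male mice of the C57BL/6JRj strain and Trpm4 knockout (KO) males, labelled B6.Cg-Trpm4tm1.2-PG, were 8 to 12 weeks old. They were sampled 24 h after a sham operation, or 24 h or 72 h after the left anterior descending coronary artery was tied off, which causes a myocardial infarction. Hearts were dissociated with thermolysin and papain, and cells positive for Calcein-AM and negative for DAPI (live cells) were sorted. Each library pooled the cells of 4 mice, so each of the 6 groups is 1 sample. No replicate error exists, no test was made, and every interval below is a 95% interval for counting error only. The series has no sham library at 72 h, so the 72 h libraries are compared with those at 24 h.

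The libraries held between 3625 and 7286 deposited cells and 199708815 UMIs in all. The WT libraries gave 35 members (cells past the rule) at sham, 27 at ligation 24 h and 64 at ligation 72 h, and the KO libraries 51, 37 and 82. Their median depth was 14337 and 10764 UMIs per cell at sham, 23693 and 22383 24 h after ligation, and 39450.5 and 2808.5 after 72 h, WT before KO. The 72 h library of KO mice was thus the shallowest by far, and 29 of its 82 members, but no member of another library, had fewer than 2000 UMIs. Its deepest member alone, with 110194 UMIs, gave 13.5% of the UMIs summed over its members. Over the 15 pairs of libraries 118 cell barcodes occurred in both, and none of them belonged to an activated fibroblast.

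Fibroblasts build and maintain the collagen scaffold of the heart. After an infarct, fibroblasts near the dead muscle take on an activated state in which they divide, migrate, secrete matrix and, as myofibroblasts, assemble contractile fibres of smooth muscle actin, a state for which TGF-beta signalling and mechanical load are the best known drives. Periostin (Postn) and tenascin-C (Tnc) are matricellular proteins, which sit in the matrix and act on cells more than they bear load, and Cthrc1 is a secreted glycoprotein of healing scars. In the GENCODE annotation of GRCm38, Postn (ENSMUSG00000027750) lies on chromosome 3 from 54361109 to 54391037 on the plus strand. Cthrc1 (ENSMUSG00000054196) lies on chromosome 15 from 39076932 to 39087121 on the plus strand, and Tnc (ENSMUSG00000028364) on chromosome 4 from 63959785 to 64047015 on the minus strand.

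The label was checked on genes the rule did not use. Of 10 further fibroblast genes that the rule did not use (Tcf21, Ddr2, Gsn, Fstl1, Serpinf1, Mmp2, Col6a1, Col6a2, Fbln1 and Pcolce), all 10 were detected in each library's members, and their summed level was 2821 to 11326 CPM (UMIs per 1000000 UMIs summed over the members of a library). The same sum was 10919 to 23226 CPM in low-activation fibroblasts. It was 227 to 381 CPM in cells with fewer than 10 UMIs over Col1a1, Col1a2, Col3a1 and Dcn. Those cells are called cells outside the fibroblast gate below, and cells that failed only another part of the gate are not among them. In each library members thus lay below low-activation fibroblasts and above the cells outside the fibroblast gate. Acta2, the smooth muscle actin gene of myofibroblasts, had a UMI in 13 of 35 WT and 19 of 51 KO members at sham, 2 of 27 and 13 of 37 at ligation 24 h, and 62 of 64 and 66 of 82 at 72 h. The 3 markers themselves, on which the cells were chosen, are given as a description. At sham 20 of 35 WT and 35 of 51 KO members held only 1 of them, mostly Postn. All 3 markers were present in 6 of 35 (17.1%) and 5 of 51 (9.80%) members at sham, and in 1 of 27 (3.70%) and 4 of 37 (10.8%) at ligation 24 h. At ligation 72 h this held for 57 of 64 WT members (89.1%, 78.8 to 95.5) and 50 of 82 KO members (61.0%, 49.6 to 71.6), although the KO cells were the shallowest of all. Most sham and 24 h members had no Acta2 UMI, and few held all 3 markers. The name activated fibroblasts is kept below for all cells past the rule. It does not mean that sham and 24 h members were in the activated state. Where these are split, it is by their leading marker, as fibroblasts with Postn or with Tnc.

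Which marker dominated differed between the conditions in both genotypes. Counts were taken at the 3' end of transcripts, so UMIs of different genes within a cell do not scale with gene length. At sham the marker with most UMIs was Postn in 23 of 35 WT and 41 of 51 KO members. After 24 h of ligation it was Tnc, in 20 of 27 WT and 28 of 37 KO members. At ligation 72 h Cthrc1 led in 33 of 64 WT members and 24 of 82 KO members, and Postn in 19 and 43. Summed over members, Postn was at 474 CPM in WT and 1022 in KO at sham, 192 and 277 at ligation 24 h, and 1003 and 882 at 72 h. Cthrc1 was at 68.8 and 135 CPM at sham, 100 and 68.7 at 24 h, and 1301 and 661 at 72 h. Tnc was at 222 and 136 CPM at sham, 584 and 542 at 24 h, and 798 and 382 at 72 h. Postn was thus lowest at 24 h, Cthrc1 high at 72 h only, and Tnc low at sham only, in both genotypes.

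**Figure D1:**
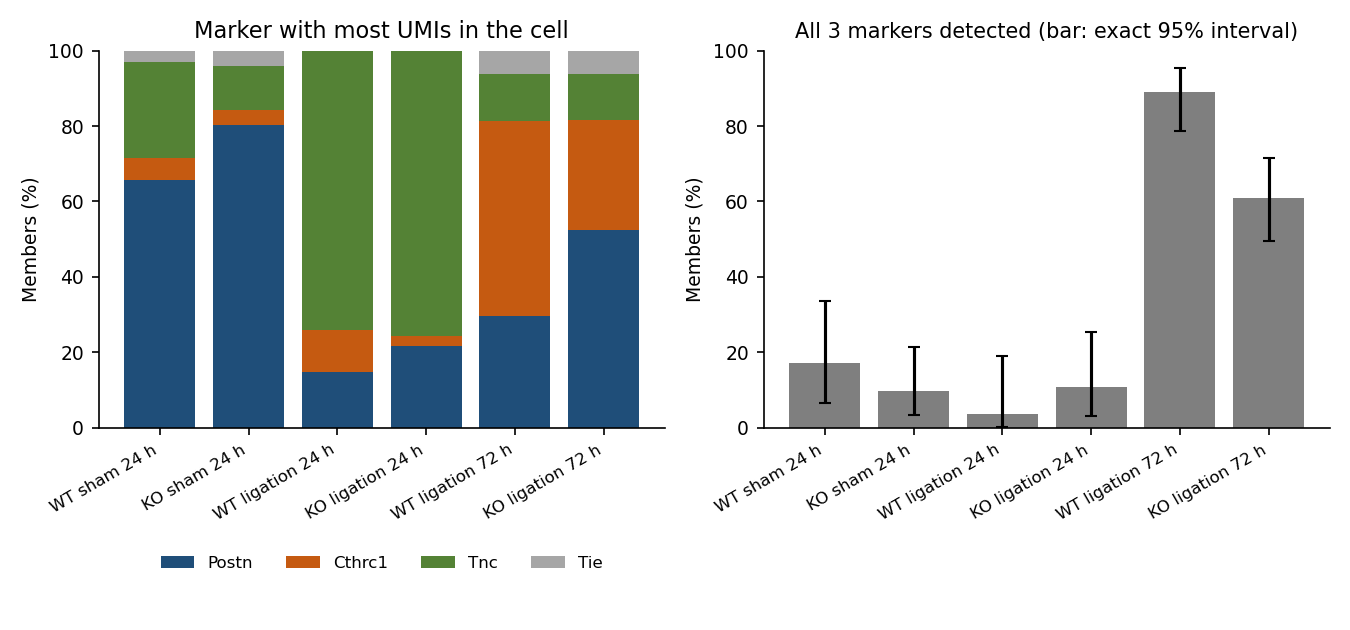
Left, share of activated fibroblasts (percent of members of each library) whose most abundant marker was Postn, Cthrc1 or Tnc, or a tie. Right, share with all 3 markers detected, with exact 95% intervals for counting error. Postn leads at sham, Tnc at ligation 24 h, and all 3 occur together in 89.1% of WT and 61.0% of KO members at ligation 72 h.

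The upstream sequences of 4 genes that carry these patterns are given here. Postn led at sham and Tnc at ligation 24 h, and the summed level of Acta2 set the 72 h libraries apart. Il11 is a cytokine of the IL-6 family, seen mainly at ligation 24 h. Of 5 genes sought, 4 were matched in the RefSeq promoter windows of GRCm38.p6 (not Cthrc1). Each line is the 250 bases before the start of the gene, 5' to 3' on the gene's strand, in lower case. Capitals mark matches to an AP-1 site (TGANTCA, which reads the same on both strands) or a TEAD site (GGAATG on either strand). A CArG box, the site of serum response factor, was searched too, in the strict form CCWWWWWWGG, where W is A or T. A form with another letter inside that run, such as ccctatatgg in the Acta2 window, was not counted. The windows are chr3:54360857-54361106 (plus strand) for Postn, chr4:64047016-64047265 (minus) for Tnc, chr19:34255374-34255623 (minus) for Acta2 and chr7:4778142-4778391 (minus) for Il11. For Acta2 the nearest start of a GENCODE transcript tagged as principal lies 217 bases from the RefSeq start used here, and for Postn 18 bases.
Postn: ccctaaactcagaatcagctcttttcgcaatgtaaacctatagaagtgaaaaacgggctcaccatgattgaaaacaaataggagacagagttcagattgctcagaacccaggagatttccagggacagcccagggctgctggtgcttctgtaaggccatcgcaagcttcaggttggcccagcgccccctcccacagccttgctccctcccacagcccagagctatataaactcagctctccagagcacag
Tnc: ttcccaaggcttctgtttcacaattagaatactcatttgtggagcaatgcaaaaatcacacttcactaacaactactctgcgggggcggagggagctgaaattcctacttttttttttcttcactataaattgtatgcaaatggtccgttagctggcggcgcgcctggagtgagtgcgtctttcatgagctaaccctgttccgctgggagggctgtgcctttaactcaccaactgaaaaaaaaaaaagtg
Acta2: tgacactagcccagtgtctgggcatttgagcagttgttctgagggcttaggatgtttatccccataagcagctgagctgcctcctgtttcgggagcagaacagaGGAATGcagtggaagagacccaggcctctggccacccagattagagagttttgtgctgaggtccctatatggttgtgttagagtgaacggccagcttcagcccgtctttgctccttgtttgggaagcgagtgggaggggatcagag
Il11: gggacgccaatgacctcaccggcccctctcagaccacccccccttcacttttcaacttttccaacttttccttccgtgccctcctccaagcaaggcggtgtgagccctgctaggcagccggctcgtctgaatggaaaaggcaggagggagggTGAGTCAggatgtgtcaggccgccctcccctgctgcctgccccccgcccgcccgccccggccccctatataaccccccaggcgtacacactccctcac
The Il11 window held the AP-1 letters at positions -98 to -92 from the start, and the Acta2 window the TEAD letters at -146 to -141. Among 32851 RefSeq windows of this length, 6.75% held the AP-1 letters, 12.6% the TEAD letters and 1.47% a CArG box. The Postn and Tnc windows held none of these letters. These are letter matches only.

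The share of gated fibroblasts past the threshold was highest in the WT library at 72 h. It was 17.7% in WT (35 of 198 cells, 12.6 to 23.7) and 21.5% in KO (51 of 237, 16.5 to 27.3) at sham, and 27.8% in WT (27 of 97, 19.2 to 37.9) and 29.6% in KO (37 of 125, 21.8 to 38.4) at ligation 24 h. At ligation 72 h it was 66.0% in WT (64 of 97, 55.7 to 75.3) and 27.3% in KO (82 of 300, 22.4 to 32.8). The distance between the genotypes at 72 h moved with the depth of the cells. With cells of at least 2000 UMIs only, the shares were 68.1% in WT and 44.2% in KO. In another setting, cells of at least 2000 UMIs that held the collagen and Dcn minimum were thinned at random to 2000 UMIs and then gated. Of these, 17 of 88 gated cells passed in WT (19.3%) and 20 of 105 in KO (19.0%), against 0.820% to 3.52% in the other 4 libraries. This left out the shallower cells, 180 of the 300 gated in KO and 3 of the 97 in WT at 72 h. Thinning also eased the limits of at most 1 UMI, and 294 cells were gated in WT at sham, against 198. The minimums for collagen and Dcn and for the markers stayed the same, so thinned cells low in these genes could fail them. Members at ligation 24 h had less Col1a1 (437 CPM in WT, 697 in KO) than those at 72 h (8450 and 4347). They had more Dcn (4297 and 2038 CPM, against 1540 and 1676). Among the cells gated in this way the 72 h libraries stood above the other 4, and WT and KO could not be told apart there. The part of the unchanged minimums in the low shares before 72 h was not tested. Near the threshold, 26 of the 54 members with 5 or 6 marker UMIs and 45 of the 83 cells just outside it, with 3 or 4, were from the KO library at 72 h, at median depths of 1596 and 1496 UMIs.

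**Figure D2:**
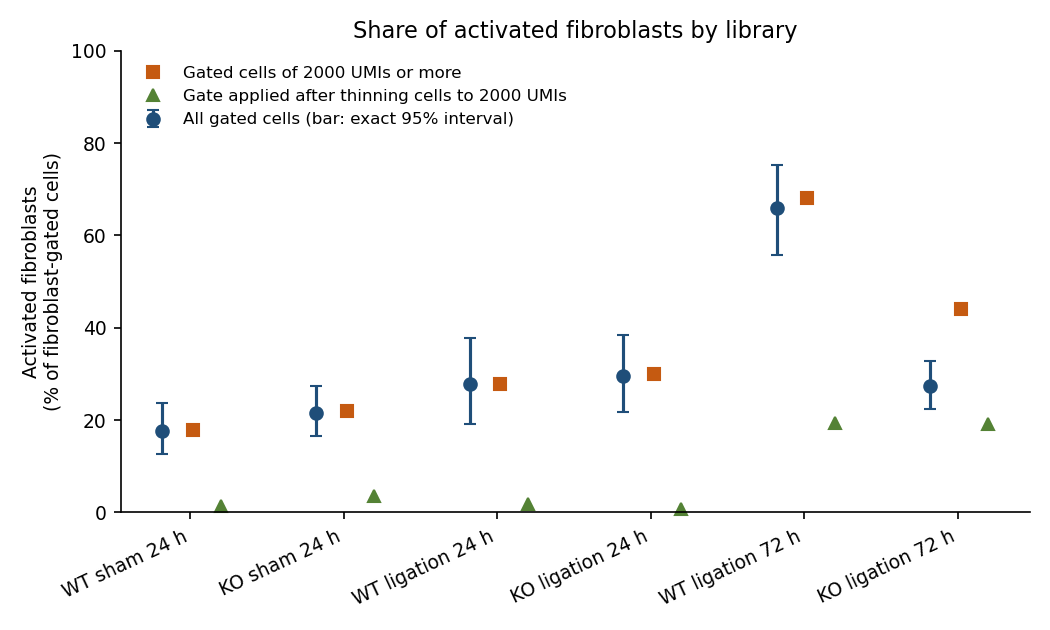
Activated fibroblasts as a percent of fibroblast-gated cells in each of the 6 libraries. All gated cells are circles (exact 95% intervals) and cells of 2000 UMIs or more squares. Triangles are cells of 2000 UMIs or more that were gated after thinning to 2000 UMIs. WT and KO at ligation 72 h read 66.0% and 27.3% as deposited, and 19.3% and 19.0% after thinning.

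RNA of other cells was mostly low in these cells but not equal among libraries. Summed over Csf1r, Cd68, C1qa, Lyz2 and Ptprc, macrophage markers were at 22.5 to 56.6 CPM in the members of 5 libraries and at 617 CPM in KO at 72 h. In that KO library low-activation fibroblasts had 5417 CPM and cells outside the fibroblast gate, as defined above, 12805 CPM. Neutrophil markers (S100a8, S100a9, Csf3r and Retnlg) reached 544 CPM in KO at 72 h and at most 163 CPM elsewhere. Summed over Lyz2, Cd74, C1qa, Tyrobp and S100a8, at most 1 UMI was found in 13 of 82 members in KO and 39 of 64 in WT at 72 h. Smooth muscle markers (Myh11, Cnn1, Des and Rgs4) summed to 69.9 and 78.6 CPM in the WT and KO members at 72 h. This lay above low-activation fibroblasts (22.4 and 18.9 CPM) and cells outside the fibroblast gate (39.5 and 69.8 CPM). Pericyte markers (Rgs5, Kcnj8, Abcc9 and Vtn) were at 0.429 and 11.1 CPM in the 72 h members. At sham the pericyte sum was higher, at 117 CPM in WT and 245 in KO members, against 20.8 and 27.7 CPM in low-activation fibroblasts and 447 and 470 CPM in cells outside the fibroblast gate, with Vtn at 0, and its part in the sham values was not tested. Trpm4 itself gave 4 UMIs in WT and 5 in KO members at sham, 1 and 0 at ligation 24 h, and 12 and 3 at 72 h. A 3' tag need not lie in the deleted part of the gene, so these counts check no label.

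Within every library, members differed from the low-activation fibroblasts beside them by low levels of genes of resting fibroblasts. The share of measured genes at least 2-fold higher, with a counting interval that excluded equality, was 2.98% (168 of 5634 genes) in KO at sham and 14.5% (448 of 3087) in KO at 72 h, the 2 libraries with at least 50 cells of both kinds. The share at least 2-fold lower was 6.62% (373) and 9.23% (285). In KO at 72 h the median of all genes lay 0.29 above 0 on the log2 scale, and relative to that median 238 genes were higher and 399 lower. With a minimum of 20 cells, which took in the other 4 libraries, 11.1% of genes were higher and 15.1% lower in WT at sham, 12.5% and 16.2% in WT at ligation 24 h, 6.87% and 15.2% in KO at ligation 24 h, and 6.44% and 9.71% in WT at 72 h. The rule made this contrast, and members were also the deeper cells in each library (medians of 6115 to 7360 UMIs in low-activation fibroblasts of 5 libraries, and 1647 in KO at 72 h).

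Of 2722 genes measured in all 6 libraries, 9 were higher in members than in low-activation fibroblasts in all 6 and 56 were lower. The 9 included Timp1, Ccn2, Ltbp2, Tnfrsf12a, Actn1, Hk2, Fkbp11 and Gpatch4, chosen by that count. Timp1, an inhibitor of matrix metalloproteases, was higher by 2.81 and 2.10 (log2) at sham, 1.96 and 2.36 at ligation 24 h, and 2.58 and 1.84 at 72 h, in WT and KO. Ltbp2, a latent TGF-beta binding protein family member, was higher by 1.49 to 4.15, and Ccn2, a matricellular protein long used as a reporter of TGF-beta and YAP activity, by 1.92 to 3.39. Tnfrsf12a, the receptor of the cytokine TWEAK, was higher by 1.67 to 3.46, and Actn1, which crosslinks actin filaments, by 1.60 to 2.43. Among 15 resting fibroblast genes measured in all libraries, 12 were lower in all 6, including Clec3b, Gsn, C3, Hsd11b1 and Smoc2. No collagen (0 of 10) and no gene of collagen processing (0 of 15) was called higher in all 6. Before 72 h, collagens outside the rule were mostly lower in members where called. At sham 0 were higher and 7 lower of 12 in WT, and 1 higher and 4 lower of 13 in KO. At ligation 24 h 0 were higher and 5 lower of 10 in WT, and 0 higher and 4 lower of 10 in KO. At 72 h 6 were higher and 1 lower of 13 in WT, and 3 higher and 0 lower of 13 in KO.

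The 72 h members differed from those at 24 h in matrix, contractile and cell cycle genes, and most of this was present in both genotypes. In WT, 743 of 5889 genes (12.6%) were higher at 72 h and 634 (10.8%) lower. In KO, 364 of 4168 (8.73%) were higher and 243 (5.83%) lower. Genes needed 50 UMIs over both libraries, so the shallower KO cells allowed fewer genes. The 24 h libraries held 27 and 37 members, fewer than the 50 first set as a minimum, and the comparison was kept with a minimum of 20 chosen after the counts were seen. The median of all genes was at -0.04 in WT and 0.00 in KO.

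Many matrix genes were higher at 72 h. Fn1, which encodes fibronectin, the early scaffold of a wound, was at 26.0 CPM in WT and 81.6 in KO at sham, 38.9 and 37.7 at ligation 24 h, and 1810 and 1331 at 72 h. Its log2 ratio of 72 h to 24 h was 5.54 (4.99 to 6.16) in WT and 5.14 (4.65 to 5.68) in KO. Of 13 measured collagens outside the rule, 10 were higher in WT and 1 lower, with a median log2 ratio of 1.48, and in KO 7 of 12 were higher and none lower, with a median of 1.27. Col14a1, a collagen that sits on fibril surfaces, was higher by 4.01 in WT and 3.93 in KO, and Col5a1, which starts fibril assembly, by 2.86 and 1.66. The only collagen called lower in WT was Col4a1, a basement membrane chain, at 687 CPM in WT members at 24 h and 316 at 72 h, lower by -1.12. Col1a1, a gene of the rule, was at 1031 and 1386 CPM at sham, 437 and 697 at 24 h, and 8450 and 4347 at 72 h.

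Collagen processing genes were higher in more numbers in WT. They encode the enzymes and chaperones that fold, trim and crosslink collagen, and 14 of 18 were higher in WT (median 1.81), against 4 of 17 in KO (median 0.66). The difference between the genotypes was not tested, and the KO value rests on fewer UMIs. Loxl3, a crosslinking oxidase, was higher by 3.58 in WT and 2.79 in KO, and Loxl2 by 2.54 and 2.18. Serpinh1, the collagen chaperone, was higher by 2.10 in WT, while in KO its ratio was 0.70 (0.59 to 0.82), under 2-fold. Among matricellular genes, 9 of 19 were higher and 5 lower in WT, and 7 of 17 higher and 2 lower in KO. Aspn, a small proteoglycan, was at 77.9 and 123 CPM at sham, 2.99 and 4.43 at 24 h, and 220 and 120 at 72 h, so that it was low at 24 h in both genotypes. Has1, a hyaluronan synthase, ran the other way, at 92.8 and 63.1 CPM at 24 h and at 1.72 and 0 CPM at 72 h.

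Acta2 summed over members was far higher at 72 h than before, although single members overlapped. In KO, 16 of 82 members at 72 h had no Acta2 UMI, while the highest at 24 h reached 24.0 per 10000 UMIs. Summed, Acta2 was at 48.1 CPM in WT and 111 in KO at sham, 13.5 and 147 at ligation 24 h, and 2466 and 1735 at 72 h. The log2 ratio of 72 h to 24 h was 7.52 (6.59 to 8.65) in WT, where only 9 UMIs were counted at 24 h, and 3.56 (3.30 to 3.83) in KO. After thinning to 2000 UMIs, which left out 29 shallower KO members at 72 h, the share of members with an Acta2 UMI was 11.4% and 17.6% at sham, 7.41% and 8.11% at 24 h, and 82.8% (53 of 64, 71.3 to 91.1) and 81.1% (43 of 53, 68.0 to 90.6) at 72 h. The groups at 72 h lay far above the others on this measure. Thinned to 1000 UMIs, with no member left out, the share was 79.7% in WT (51 of 64) and 59.8% in KO (49 of 82) at 72 h, so the distance between the genotypes moved with the depth chosen. In endothelial cells, which should lack Acta2 and had median depths of 2293 to 4458 UMIs, the thinned share was 0.820% to 3.25% and the share as deposited 3.18% to 6.15% in the 6 libraries, and in low-activation fibroblasts it was 24.0% in WT and 27.3% in KO at 72 h. As deposited the shares in members were 37.1%, 37.3%, 7.41%, 35.1%, 96.9% and 80.5% in the same order of libraries. Other genes of the contractile apparatus went with it. In the list, which counts Acta2 itself, 7 of 15 were higher in WT (median 0.94) and 6 of 15 in KO (median 0.82), none lower. Tagln, an actin-binding protein of smooth muscle, was higher by 6.49 in WT and 2.0 in KO, Myl9 by 4.41 and 3.68 and Tpm2 by 3.57 and 2.03.

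Cell cycle genes were low before 72 h. Mki67, present in dividing cells, had 0 UMIs in the members of all 4 libraries at sham and 24 h, and was at 62.6 CPM in WT (26 of 64 cells) and 78.6 CPM in KO (15 of 82 cells) at 72 h. Birc5 (survivin), needed for chromosome segregation, had at most 6.49 CPM before and 182 and 168 CPM at 72 h. Of the 16 proliferation genes, 11 of 15 measured were higher in WT and 11 of 13 in KO, none lower, with median log2 ratios of 3.26 and 4.63. In these medians 5 genes in WT and 1 in KO with 0 UMIs at 24 h stand at their bound, with 3 counts in place of 0. After thinning to 2000 UMIs, at least 1 UMI of 10 G2/M genes was found in 32 of 64 WT members (50%, 37.2 to 62.8) and 24 of 53 KO members (45.3%, 31.6 to 59.6) at 72 h. In the other 4 libraries the share was at most 2.86%, with 0 of 27 in WT at 24 h, which allows up to 11.1%. As deposited, the shares were 20%, 7.84%, 14.8%, 27.0%, 87.5% and 48.8%, and move with depth. Among endothelial cells at 72 h it was 16.8% and 15.9%, and among low-activation fibroblasts 2 of 25 (8.00%) in WT and 19 of 44 (43.2%) in KO. Other cells at 72 h thus carried these genes too, at a lower share except for the low-activation KO cells.

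Several chemokine genes were lower at 72 h than at 24 h, while the cytokine list as a whole held genes of both directions. Ccl2, which draws monocytes, was at 579 and 1289 CPM at sham, 2593 and 2243 at ligation 24 h, and 438 and 370 at 72 h, lower from 24 h to 72 h by -2.57 in WT and -2.60 in KO. Cxcl5, which draws neutrophils, was at 2156 and 991 CPM at sham, 2967 and 1232 at 24 h, and 398 and 173 at 72 h. Il11 was at 23.4 and 0 CPM at sham, 361 and 135 at 24 h, and 14.6 and 3.69 at 72 h, and came from few cells (8 in WT and 5 in KO at 24 h, with 83% of the KO UMIs in 1 cell). Of the cytokine list, 6 of 14 genes were lower at 72 h in WT and 7 of 13 in KO, and 5 and 2 were higher (list medians of -0.11 and -1.27), among them the growth factor genes Mdk (2.42 and 2.52) and Ptn (2.0 and 6.51). Of the hypoxia and glycolysis list, 3 of 14 genes were lower in WT and 1 of 12 in KO, none higher, with medians of -0.13 and 0.11. The glucose transporter Slc2a1 and hexokinase Hk2 were lower at 72 h in WT by -2.10 each.

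Signalling and regulatory genes were mixed. Of the TGF-beta list, which holds ligands, receptors, latent binding proteins and targets, 2 of 15 genes were higher at 72 h than at 24 h and 5 lower in WT, and 2 of 11 higher and 1 lower in KO. The ligand Tgfb2 was higher by 1.34 in both genotypes, while Inhba was lower by -2.95 and -2.11. Among proteases and their inhibitors 5 of 15 were higher and 3 lower in WT, and 4 of 14 higher and 2 lower in KO, with the fibroblast activation protease Fap higher by 3.33 in WT (1.42 to 6.40, with 2 UMIs at 24 h). Of the transcription factors, 5 of 19 were higher and 2 lower in WT, among the higher Runx1 (1.45), a regulator of cell fate, and 3 of 12 were higher and 1 lower in KO, among the higher the mesenchymal factor Prrx1 (1.78). Resting fibroblast genes were lower where called, 7 of 13 in WT and 4 of 11 in KO. Genes of the secretory pathway and unfolded protein response were higher in 5 of 18 in WT and 0 of 18 in KO, none lower, and the difference between the genotypes was not tested.

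**Figure D3:**
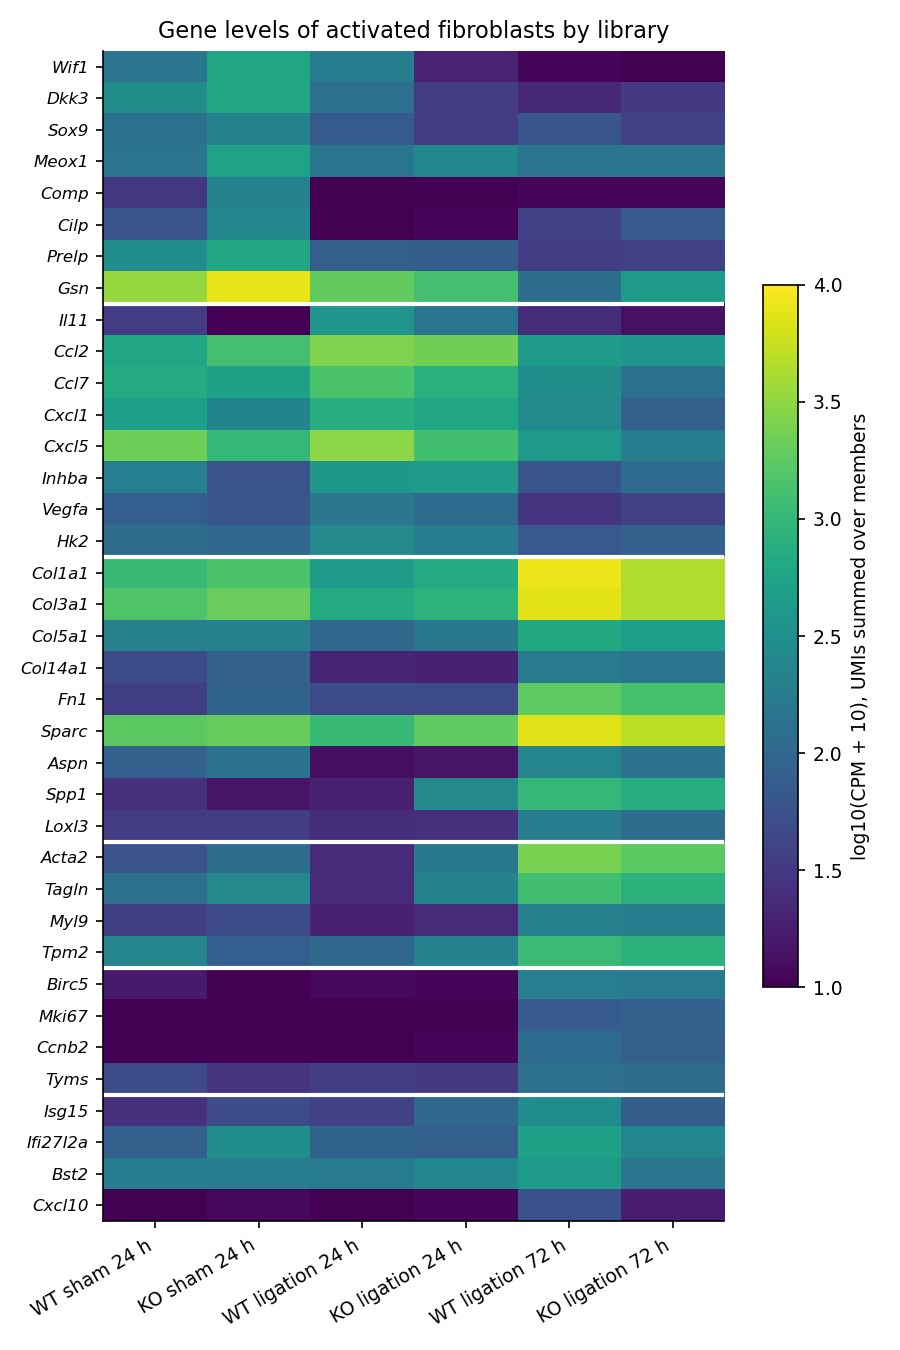
Level of 37 genes in activated fibroblasts of each library, as log10(CPM + 10) of UMIs summed over members. From top, separated by white lines: genes high at sham, at ligation 24 h, matrix genes, contractile genes, cell cycle genes and interferon-induced genes, chosen after their values were seen. Matrix, contractile and cycle genes are brightest in the 2 columns at 72 h, and Il11 in those at 24 h (361 and 135 CPM).

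Before 72 h, members led by Postn and members led by Tnc differed in some genes and shared others. The rule did not balance the leading marker, and tied members are left out. WT and KO cells are pooled here unless a genotype is named. In the 64 sham members led by Postn, Wif1, a secreted inhibitor of Wnt signals, gave 504 UMIs in 37 cells, Dkk3, a relative of Wnt inhibitors, 603 UMIs in 53 cells, and Comp and Cilp, matrix proteins of cartilage and tendon, 137 and 110 UMIs in 12 cells each. In the 15 sham members led by Tnc, Wif1, Dkk3, Comp and Cilp had 0 UMIs among 440941, while Cxcl5 gave 1420 UMIs in 14 cells and Ccl2 695 in 13. The 48 members led by Tnc at ligation 24 h likewise had 0 UMIs of Wif1 and Dkk3 among 1197386. They held 287 UMIs of Il11 in 10 cells and 3457 of Ccl2 in 42 cells. The 12 members led by Postn at ligation 24 h held 127 UMIs of Wif1 in 5 cells, 118 of them in 2 WT cells, and none of Il11. Chemokines were not limited to members led by Tnc: those led by Postn held 687 UMIs of Cxcl5 in 9 cells and 614 of Ccl2 in 13 cells at sham, and 204 of Ccl2 in 7 cells at 24 h. In KO at sham Cxcl5 was at 842 CPM in members led by Postn, from 5 of 41 cells, and 414 CPM in those led by Tnc, from 6 of 6 cells. Wif1 and Dkk3 were thus found with Postn and not with Tnc as leading marker both at sham and at ligation 24 h, and chemokines with either. Other genes were also found with either. At sham Sox9 gave 192 UMIs in 44 cells led by Postn and 20 in 6 led by Tnc. At 24 h Meox1 gave 131 UMIs in 10 cells and 165 in 29, and Prg4 1220 in 9 and 1816 in 26. The 4 members led by Cthrc1 at 24 h held 76 UMIs of Il11 in 3 cells and 753 of Cxcl5 in 4. The 4 at sham held 3 UMIs of Dkk3 in 2 cells.

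The members at ligation 24 h were also compared with the sham members of the same genotype. In WT, 160 of 3974 genes (4.03%) were higher at 24 h and 306 (7.7%) lower, and in KO 272 of 4213 (6.46%) were higher and 572 (13.6%) lower. The hypoxia and glycolysis list had 6 of 12 genes higher in WT and 5 of 13 in KO, none lower, with medians of 0.92 and 0.91. Slc2a1 was higher by 2.94 in WT and 1.23 in KO, and lactate dehydrogenase (Ldha) by 1.08 and 1.13. Timp1 was at 1812 and 2175 CPM at sham and 5035 and 6149 at 24 h, higher by 1.47 and 1.5. Inhba, a subunit of activin, was higher by 1.03 and 3.16. All measured matrifibrocyte genes, named for the resident cells of old scars, were lower (3 of 3 in WT, 5 of 5 in KO), with Prelp at -1.97 and -3.18. Ecrg4, a secreted peptide precursor, was at 129 and 356 CPM at sham and at 1 UMI in each library at 24 h. Gsn, an actin-severing protein abundant in resting fibroblasts, was at 3383 and 7984 CPM at sham, 1882 and 1285 at 24 h, and 110 and 447 at 72 h.

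At 72 h, in UMIs summed over members, activated fibroblasts of the KO library differed from those of the WT library in few genes. Of 6021 genes measured, 114 (1.89%) were higher in KO and 135 (2.24%) lower, with a median of all genes of 0.03. The number depended on the weighting of cells. With each cell weighted equally, 377 of the 6021 were higher and 489 lower, and only 72 and 77 of these were also called in the sums. The levels of Acta2, Fn1, Tagln and Col5a1 in KO lay within 2-fold of those in WT. Acta2, at 2466 CPM in WT and 1735 in KO, had a log2 ratio of -0.51 (-0.59 to -0.42), Fn1 -0.44 (-0.54 to -0.35), Tagln -0.53 (-0.65 to -0.41) and Col5a1 -0.48 (-0.65 to -0.32). No collagen outside the rule (0 of 13, median -0.16) and no contractile gene (0 of 15, median -0.16) was called in either direction. The 3 collagens of the rule, not counted there, were lower in KO. Col1a1 was at 8450 CPM in WT and 4347 in KO, Col1a2 at 7175 and 4136, and Col3a1 at 7612 and 4385. Of the markers, Tnc was at 798 and 382 CPM, Cthrc1 at 1301 and 661, and Postn at 1003 and 882. Of 18 collagen processing genes 2 were lower, Plod2 at -1.15 and Fkbp10 at -1.0, which serve in hydroxylation and folding of collagen, and the median was -0.65. With a single library of each genotype, a ratio of this size cannot be told apart from the spread between pools. Over the 12 settings, Acta2 lay between -0.65 and -0.11, Tagln between -0.91 and -0.26 and Col5a1 between -1.03 and -0.19. Fn1 and both list medians changed sign: with each cell weighted equally Fn1 was at 0.24 and the collagen median at 0.15, and in members gated after thinning the contractile median was at 0.016. Where only members with at most 1 myeloid UMI were kept (13 in KO, 39 in WT), the collagen median was -0.68 and 3 of 13 were called lower.

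Interferon-induced genes were the list with the lowest median in KO at 72 h. Of 12 measured genes, 8 were lower and none higher, with a median of -1.49. Isg15, a ubiquitin-like protein induced by interferon, was at 16.9 and 38.6 CPM at sham, 28.4 and 89.7 at ligation 24 h, and 277 in WT against 66.3 in KO at 72 h, a log2 ratio of -2.06 (-2.49 to -1.66), although 54% of the KO UMIs came from 1 cell. It stayed between -1.28 and -3.11 over the alternatives. Bst2 (tetherin) was at 445 CPM in WT and 141 in KO at 72 h (-1.65), and Ifi27l2a at 513 and 238 (-1.11), which turned to 0.52 with each cell weighted equally. The chemokine Cxcl10 was at 46.3 and 7.37 CPM, from 6 cells in WT and 1 in KO. Over the alternatives tried, the list median lay between -0.46, with each cell weighted equally (4 of 12 lower), and -2.34, with members of at most 1 myeloid UMI (7 of 7 lower). In members gated after thinning, 3 of 4 measured were lower (median -1.16). Isg15 outside the fibroblast gate was at 418 CPM in WT and 273 in KO, and the part of RNA from other cells was not tested. From 24 h to 72 h, 11 of the 12 genes were higher in WT and 1 of 5 measured in KO.

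Cytokine and chemokine genes were lower in KO at 72 h in sums over members, but not in all ways of choosing members. Of 13 genes 8 were lower, none higher, with a median of -1.20. Cxcl12, the ligand of Cxcr4, was at 125 and 77.2 CPM at sham, 40.4 and 60.9 at 24 h, and 291 in WT against 82.3 in KO at 72 h (-1.82, -2.20 to -1.46). Cxcl1 was at 255 and 72.5 CPM at 72 h (-1.82), from 28 cells in WT and 8 in KO, and Il6 at 46.3 and 12.3 (-1.91). The acute-phase gene Saa3 was at 75.5 and 11.1 CPM (-2.77), from 4 WT and 7 KO cells. In members gated after thinning to 2000 UMIs, 2 of 7 measured were higher and 1 lower, with a median of 0.07, and Cxcl14 went from -1.58 to 1.22. Cxcl12 stayed lower there, at -1.49.

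Among single genes, the lowest KO ratios at 72 h were those of Rhox5, Hp, Ccn5 and Ptx3. Rhox5, an X-linked homeobox gene best known from the reproductive tract, had 1 UMI in KO and 296 in WT, in 12 of 64 cells, a log2 ratio of -6.69 (-12.00 to -4.20). It was present in KO members at 24 h (155 CPM in 7 cells, against 186 CPM in 3 cells in WT). Haptoglobin (Hp) was at 306 CPM in WT and 13.5 in KO (-4.50), and its ratio was 0.05 in members gated after thinning. Ccn5, a matricellular protein that lacks the C-terminal domain of its relatives, was at 232 CPM in WT and 23.3 in KO (-3.31, -4.05 to -2.65), and lay between -2.22 and -3.60 over the alternatives in which it was measured. Ptx3, a pentraxin of innate immunity, was at 140 and 14.7 CPM (-3.25, -4.21 to -2.42). Tspan6, a membrane protein of the tetraspanin family, was at 127 and 45.5 CPM (-1.48), with values of -1.14 to -1.91 likewise. Sfrp2, a modulator of Wnt signals, was at 364 and 108 CPM (-1.75), and at 0.69 in members with at most 1 myeloid UMI.

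Of the remaining lists, resting fibroblast genes had the most called between the genotypes at 72 h, 3 higher in KO and 3 lower of 12, with a median of -0.04. Of the 3 matrifibrocyte genes measured, 2 were lower in KO and none higher, with a median of -1.34, and 1 of them, Sfrp2, is also in the receptor list. The others were the TGF-beta list (1 higher in KO and 1 lower, of 14), proteases (0 and 2 of 16), receptors and growth factors (0 and 2 of 14), transcription factors (1 and 0 of 18), the secretory pathway (1 and 0 of 18), the dissociation response (0 and 1 of 16), hypoxia and glycolysis (0 and 0 of 14) and matricellular genes (2 and 2 of 20).

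**Figure D4:**
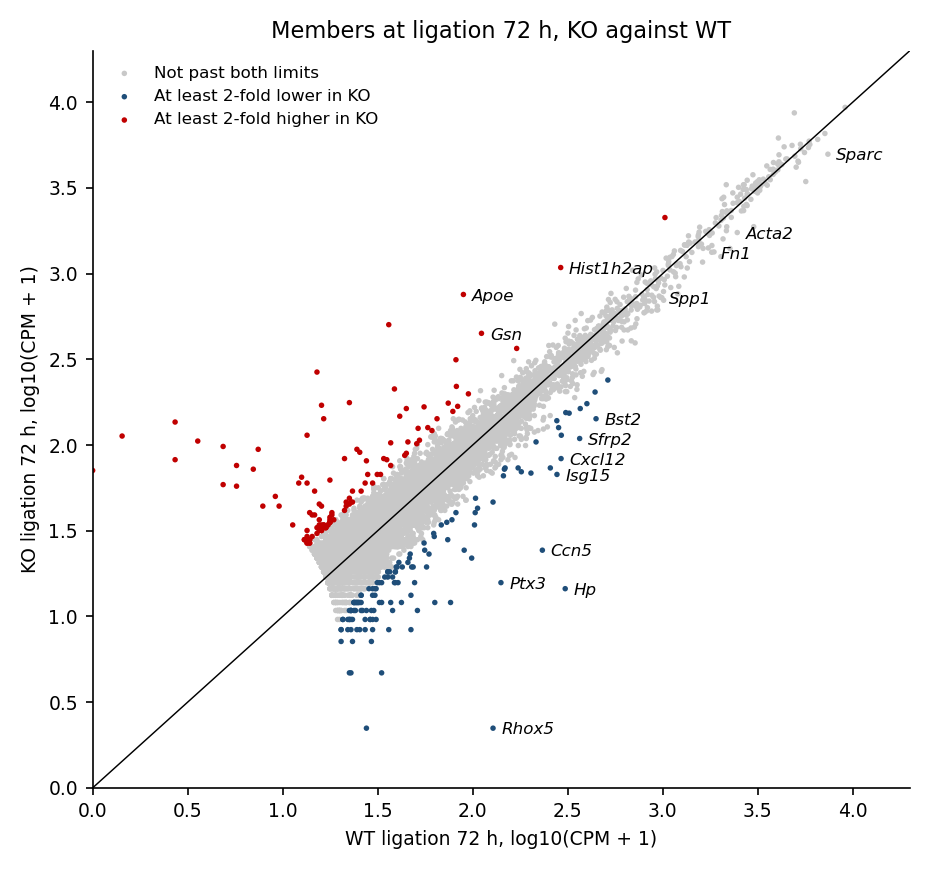
Level of each measured gene in activated fibroblasts at ligation 72 h, KO (y axis) against WT (x axis), as log10(CPM + 1), with the line of equality. Red and blue points are the 114 and 135 genes at least 2-fold higher and lower in KO with an interval that excludes equality. Acta2, Fn1 and Spp1 sit just under the line, while Rhox5, Hp, Ccn5 and Ptx3 sit far below it.

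The genes higher in KO at 72 h included Apoe and Gsn, both high in sham members, and genes of dividing cells. Apoe, a lipid carrier, was at 88.3 CPM in WT and 754 in KO (3.09, 2.86 to 3.33) and Gsn at 110 and 447 CPM (2.02, 1.79 to 2.26). Apoe is also a gene of macrophages, whose markers were at 56.6 CPM in WT and 617 in KO members, and the part of their RNA was not tested. In members with at most 1 myeloid UMI Apoe was at 1.64 and Gsn at 0.56, and in members gated after thinning at 3.5 and 0.12. Histone genes Hist1h2ae (2.49), Hist1h2ap (1.90) and Hist1h1b (1.89) drew 76%, 69% and 70% of their KO UMIs from 1 cell. The 4 proliferation genes called higher were Top2a, Ccnb1, Aurka and Ube2c, with 79%, 54%, 75% and 77% of their KO UMIs in 1 cell. Without the deepest member of each library, none of 15 was called in either direction and the median went from 0.44 to -0.24. Ccnd1 (cyclin D1) was at 40.3 CPM in WT and 146 in KO (1.86, 1.46 to 2.26), with 18% of its UMIs from 1 cell, and the Notch target Hes1 at 50.6 and 124 CPM (1.29). With each cell weighted equally they were at 0.39 and 0.37.

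**Figure D5:**
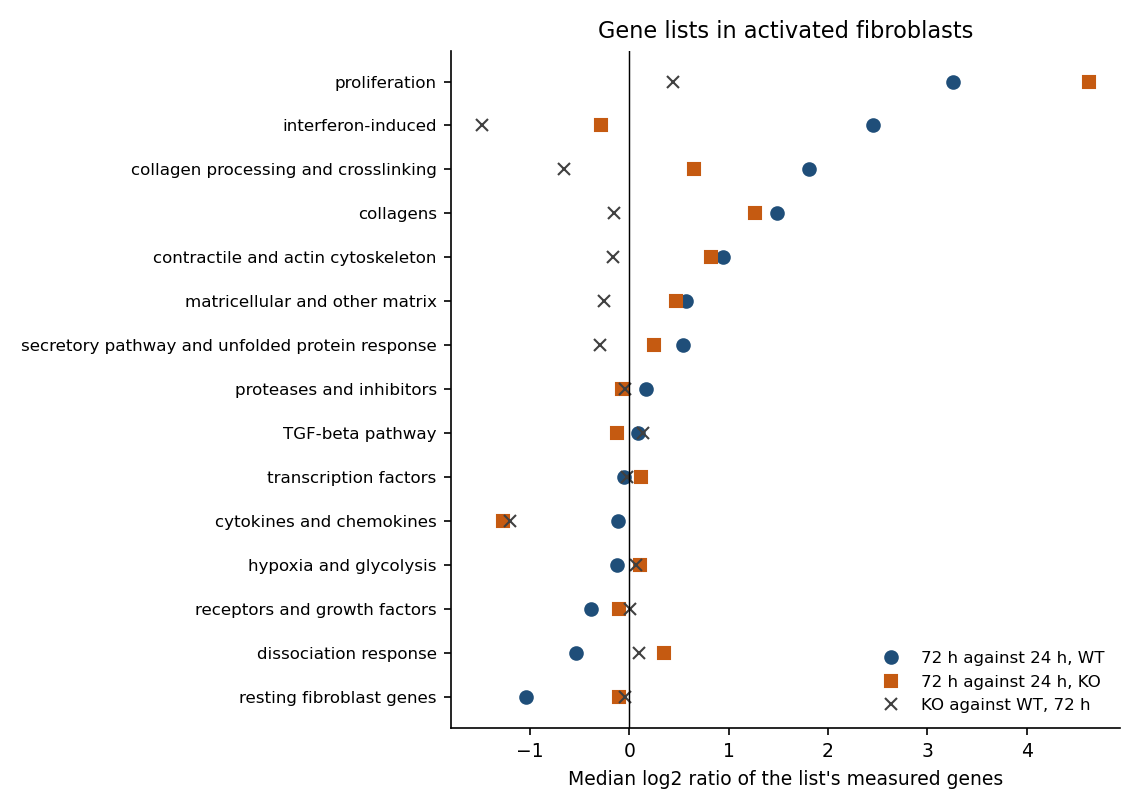
Median log2 ratio of each gene list in activated fibroblasts for 72 h against 24 h in WT (circles) and KO (squares) and for KO against WT at 72 h (crosses), with the matrifibrocyte list left out for its few measured genes. The 3 comparisons share libraries. Proliferation, collagen and contractile lists lie right of 0 at 72 h in both genotypes, and the interferon list at 2.46 in WT and -0.28 in KO.

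In the sham and ligation 24 h libraries the genotypes were compared over 27 to 51 members. At sham, 127 of 4191 genes (3.03%) were higher in KO and 91 (2.17%) lower. The higher ones included 3 genes found at sham in members led by Postn and not in those led by Tnc. These were Comp at 20.8 CPM in WT and 203 in KO (3.29), Cilp at 52.0 and 242 (2.22) and Wif1 at 142 and 593 (2.07). The transcription factor Meox1, at 134 and 539 CPM (2.01), was found in both. It gave 415 UMIs in 45 of 64 sham members led by Postn and 26 in 9 of 15 led by Tnc. Thbs1 was at 104 and 559 CPM (2.43), with 40% of the KO UMIs in 1 cell. The share of members led by Postn also differed, 23 of 35 in WT and 41 of 51 in KO, and its part in these ratios was not tested. At ligation 24 h, 40 of 3914 genes (1.02%) were higher in KO and 77 (1.97%) lower. Tagln was at 13.5 CPM in WT and 210 in KO (3.97), from 5 and 14 cells, and Prg4 (lubricin) at 4341 and 625 (-2.80). Mmp3, a stromelysin, was at 418 and 31.0 CPM (-3.75), with 76% of the WT UMIs in 1 cell.

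The 64 WT members at 72 h, the deepest, varied widely among themselves. Per 10000 UMIs, Acta2 ran from 0 to 87.0 with a median of 15.1 and quartiles of 6.69 and 35.7, Cthrc1 from 0 to 58.8 with a median of 11.5, and Postn from 0 to 54.3 with a median of 5.12. Across these cells of 1 library, on the log2 scale of values per 10000 plus 1, Acta2 and Tagln had a Pearson r of 0.66, Cthrc1 and Acta2 0.53, and Postn and Acta2 0.02. Postn went with Fn1 (0.61) and Tnc (0.58), and against Ccl2 (-0.47). Acta2 went with the depth of the cell (0.46 with log2 UMIs), and Postn less so (-0.12). In this library the levels of Postn, a gene of the rule, and Acta2 thus showed no linear relation across cells. In KO at 72 h, Acta2 ran from 0 to 69.8 per 10000 with a median of 10.7, and Postn from 0.767 to 76.7 with a median of 12.1.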

How the data were processed

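The authors deposited a matrix of raw UMI counts for each library, which the submitters' processing notes credit to Cell Ranger 6.0.0 and mm10. Further filters are not given in the sources used here. Counts of 32285 genes were summed over the members of a library and scaled to a total of 1000000 (CPM). A ratio carries the exact conditional 95% interval of 2 Poisson counts and shares the Clopper-Pearson interval, both for counting error only. Genes needed 50 UMIs over both groups. A gene was called at 2-fold or more with an interval excluding equality, without the 18 genes of the rule, and a count of 0 was set to 3. Named genes were the 10 highest and 10 lowest ratios with at least 100 CPM in the higher group and a level no higher in cells outside the fibroblast gate, plus the markers, Trpm4 and list genes. Ribosomal protein and mitochondrial genes were not named, and 1 gene is not reported here. The members and the 16 gene lists were chosen with earlier results of these data known. Doublets stayed in, except in an alternative that removed the highest Scrublet scores at 0.8% per 1000 cells. The other alternatives were marker thresholds, depth limits, thinning, mitochondrial limits, count minimums, centring and equal weight per cell. The ratio and gate steps were tested on simulated data. Python 3.11.15, numpy 2.4.6, scipy 1.17.1, pandas 2.3.3 and scanpy 1.11.5 were used.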

Additional observations from a re-analysis of the deposited data

Results flagged for a closer look

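The median log2 ratio of the interferon-induced list from ligation 24 h to 72 h had opposite signs in the 2 genotypes. It was 2.46 in WT, over 12 measured genes of which 11 were called higher, and -0.28 in KO, over 5 measured genes of which 1 was called higher and none lower. The difference was not tested. Over the 5 genes measured in both, the ratios in WT and KO were 3.28 and -0.44 for Isg15, 1.42 and -0.79 for Bst2, 1.20 and -0.28 for Ly6e, 2.64 and 1.75 for Ifi27l2a, and 0.71 and 0.52 for Xaf1. The members at 72 h had a median depth of 39450.5 UMIs in WT and 2808.5 in KO, and the part of depth was not tested.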

How the results depend on the processing

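Of the repeated shares, counts of called genes and Acta2 shares, 90 kept within the margin of the main value and 60 did not. Of the repeated values of single genes, 2130 kept within it, 314 moved and 16 reversed. A changed count minimum decides which genes are measured and cannot change the ratio of a gene. Centring shifts all ratios of a comparison by the same amount, the median of all genes. The 2130 thus include values that could not move, and their number does not measure how stable the ratios are. The cause of the moves and reversals was not tested beyond what each setting removes.

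Gating after thinning to 2000 UMIs, which left out shallower cells, gave shares of 1.36% and 3.52% at sham, 1.77% and 0.820% at ligation 24 h and 19.3% and 19.0% at 72 h, in WT and KO. A threshold of 10 marker UMIs gave 11.1% and 12.7% at sham, 19.2% in KO at 24 h and 12% in KO at 72 h. In KO at 72 h a threshold of 3 gave 42.3%, and cells of at least 2000 UMIs 44.2%. The share of members with Acta2, thinned to 1000 UMIs, was 2.86% and 5.88% at sham, 0% in WT at 24 h and 59.8% in KO at 72 h. As deposited it was 37.1% and 37.3% at sham, 35.1% in KO at 24 h and 96.9% in WT at 72 h.

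For KO against WT at 72 h, genes higher numbered 377 with equal weight per cell, 38 with members thinned to 2000 UMIs, 290 with a minimum of 20 UMIs and 22 with 200, and 61 with members gated after thinning (17 and 20 cells). Genes lower numbered 489, 10, 34 with 200 UMIs and 82 after the thinned gate. For 72 h against 24 h in WT, thinned members gave 100 higher and 37 lower, a minimum of 200 UMIs gave 310 and 172, and one of 20 gave 964 lower. In KO, thinned members gave 102 higher and 45 lower, a minimum of 20 gave 704 and 406 and one of 200 gave 89 and 50, and equal weight per cell gave 628 lower. Thinning and higher minimums leave fewer genes to measure.

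Against low-activation fibroblasts in KO at sham, thinned members gave 58 higher and 138 lower, a minimum of 20 UMIs 331 and 565, and one of 200 37 and 98. In KO at 72 h thinned members gave 77 and 95, a minimum of 200 gave 106 and 69, one of 20 gave 671 lower, equal weight per cell 165 lower, and centring 238 higher. Genes higher in all 6 libraries numbered 3 with thinned members and 2 with 200 UMIs. Genes lower in all 6 numbered 29 with equal weight per cell, 9 thinned, 103 with 20 UMIs and 13 with 200.

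The reversed log2 ratios of KO to WT at 72 h were Cxcl14 at 1.22, Hp at 0.050, Mmp3 at 0.075, Ccnb1 at -0.095 and Ube2c at -3.54 with members gated after thinning. With equal weight per cell they were Hist1h1b at -0.16, Hist1h2ae at -0.077, Hist1h2ap at -0.16, Ube2c at -0.38, Top2a at -1.51, Ccnb1 at -0.016 and Ifi27l2a at 0.52. Ifi27l2a was at 0.62 with thinned members. Without the deepest member Ube2c was at -0.30 and Top2a at -0.34, and Sfrp2 was at 0.69 with at most 1 myeloid UMI. Settings with the deepest member removed, the myeloid limit, the thinned gate and the minimum of 20 cells were chosen after seeing the data. Scrublet's own threshold marked 0 to 52 cells in a library, so a fixed rate was used, which removed 0 to 4 members in a library. No paired analysis was possible because each group holds 1 library.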
